A study of Sus scrofa with 74 samples.

Results

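The muscles compared here were the 24 of highest and the 24 of lowest interferon-stimulated gene score among 74 pigs. The animals were grouped by a score made from 3 genes, MX1, ISG15 and IFIT1, each read on its probe set of highest median signal. The score of an animal is the mean of the 3 z scores over all 74 animals. The sample labels carry running numbers with a gap, 24 animals from 1 to 33 and 50 animals from 60 to 114, and the highest and lowest animals were taken within each of these blocks, 8 a side in the lower block and 16 a side in the upper block. The 26 animals between them, 8 and 18, are called the middle animals. All 74 were F2 pigs from Duroc and Pietrain, with no treatment in the labels, and the M. longissimus dorsi was taken at slaughter at a mean end weight of 110 kg. One RNA sample per animal went onto 1 Affymetrix Porcine Genome Array. High and low are thus names for ends of a range measured on these arrays, with no record of infection, vaccination or interferon treatment in the labels. The pigs come from full-sib families and the labels give neither family, sex nor slaughter date, so the p-values below treat related animals as independent.

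Interferons are secreted proteins by which cells warn each other of a virus. Type I and type III interferons act through receptor-bound JAK kinases on STAT2, which works with IRF9 in the nucleus to switch on the interferon-stimulated genes, while interferon gamma induces IRF1 and raises antigen presentation. MX1, a GTPase that traps viral nucleocapsids, ISG15, a ubiquitin-like protein joined to other proteins, and IFIT1, which binds viral RNA ends, are textbook members of the set. Skeletal muscle fibres respond to interferon, and a piece of muscle also holds endothelium, fat cells, connective tissue and resident macrophages.

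All levels are log2 of array signal after a common scaling of the arrays (trimmed mean 500), so that 1 unit is a doubling. A probe set is a group of short probes that together read 1 transcript. Of 23999 probe sets that are not controls, those of highest median signal were kept, and 11449 were tested after the probe sets of the score genes were left out. Muscle markers had the signals of this tissue, with MYH2, the myosin of fast oxidative fibres, at mean log2 levels of 15.85 in high and 15.86 in low animals. None of the 18 annotated T and NK cell markers reached the kept probe sets, and of the markers of leukocytes only 1 B cell and 11 myeloid genes did. In such bulk samples fewer cells of a type and less RNA per cell cannot be told apart.

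The score genes are given as a description, since they chose the groups. In the lower block the MX1 level ran from 8.62 over a median of 9.25 to 10.76 in the 8 high animals and from 6.30 over 8.06 to 8.58 in the 8 low animals. In the upper block it ran from 7.88 over 8.85 to 12.05 in the 16 high animals and from 3.24 over 7.64 to 8.71 in the 16 low animals. MX1 thus separated the groups fully in the lower block and left an overlap in the upper block, where 11 of the 16 high animals lay above every low animal. ISG15 ran from 8.20 over 8.76 to 10.34 against 7.04 over 7.62 to 8.18 in the lower block, with no overlap. In the upper block its levels were 7.94, 9.03 and 12.49 (lowest, median and highest) in high animals against 7.29, 7.87 and 8.54 in low animals, and 13 of the 16 high animals lay above every low animal. IFIT1 separated the groups least. Its levels were 8.02, 9.11 and 9.77 against 7.80, 8.52 and 9.23 in the lower block, and 7.14, 8.24 and 10.58 against 6.10, 7.45 and 8.32 in the upper block. Over the 74 animals the Pearson correlation of MX1 and ISG15 was 0.57, that of IFIT1 with MX1 0.37 and with ISG15 0.34. The IFIT1 probe set used correlated at 0.19 with the other kept IFIT1 probe set and at 0.73 with one that was not kept.

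**Figure D1:**
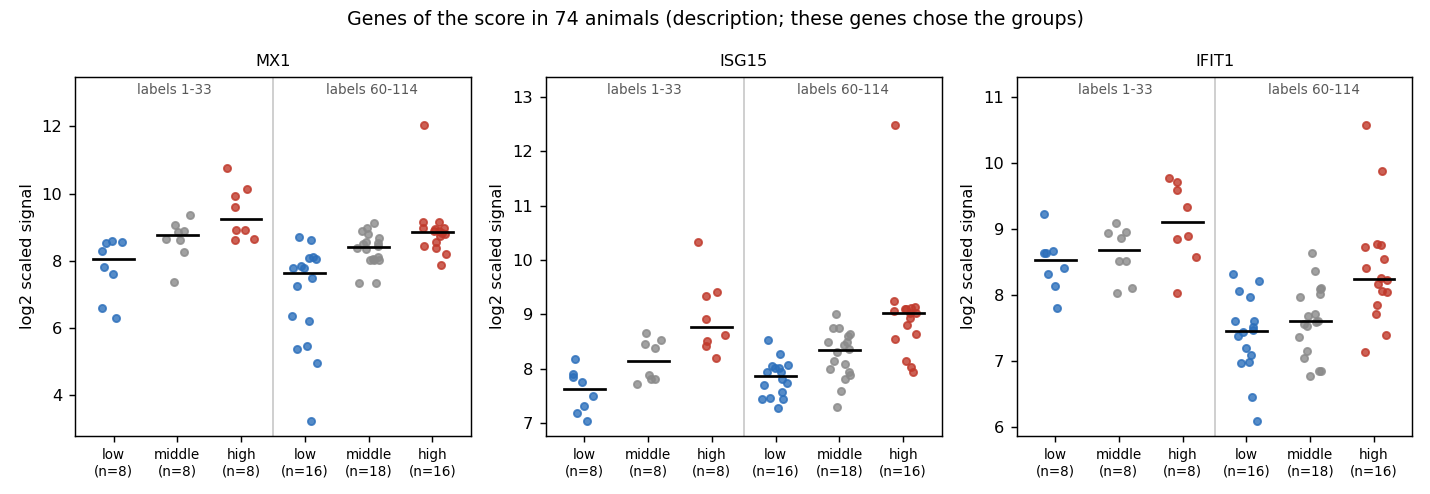
Log2 scaled signal of MX1, ISG15 and IFIT1 in each of 74 animals (points) by group and label block, with the group median as a bar. ISG15 did not overlap between high and low animals of labels 1-33, whereas IFIT1 overlapped in both blocks, and 1 high animal of labels 60-114 lay at 12.05 in MX1 and 12.49 in ISG15.

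The score changed gradually through the thresholds. In the lower block the last high animal had a score of 0.418 and the first middle animal 0.387, and the last middle animal had 0.122 and the first low animal 0.0705. The values of the upper block were 0.167 and 0.128, and -0.434 and -0.470. The same score therefore placed an animal in different groups in the 2 blocks, and the fit carried the block as a covariate. A single animal stood apart at the top. Animal 63, of the upper block, had a score of 3.76, with the next at 2.18 (animal 15) and 1.27 (animal 11), and its scaled signals were 4240 for MX1, 5768 for ISG15 and 1529 for IFIT1 beside medians of 367, 292 and 271 over the 74 animals. At the low end animal 91 had a score of -2.16, with MX1 at a log2 level of 3.24, ISG15 at 7.93 and IFIT1 at 6.46. Some low animals were low through MX1 alone. Animals 103 and 113 had MX1 at 4.97 and 5.38, but ISG15 at 8.07 and 8.54 and IFIT1 at 8.22 and 8.07. The medians of the low animals of their block were 7.87 for ISG15 and 7.45 for IFIT1.

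Other interferon-stimulated genes, which had no part in the choice, were higher in the high animals. In limma with Benjamini-Hochberg adjustment, 5 of 11449 probe sets were called higher at an adjusted p under 0.05, a share of 0.0437%, and 0 were called lower, a share of 0%. At an unadjusted p under 0.05, 3.62% of the probe sets were higher (414) and 3.25% lower (372). Of the 5, 4 have a symbol, IFIT3, OAS1, ISG12(A) and RSF1, and 3 of these are interferon-stimulated genes by textbook knowledge. No probe set separated all high from all low animals (0 of 11449, 0%). The score and these readings come from the same arrays, so whatever sets several transcripts on 1 array enters both.

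OAS1, the synthase that makes 2'-5' oligoadenylates on double-stranded RNA and thereby switches on RNase L, ran from 7.31 over 8.33 to 8.92 in high and from 6.37 over 7.45 to 7.81 in low animals of the lower block. The OAS1 levels of the upper block were 7.08, 8.23 and 10.12 in high animals and 6.12, 7.14 and 7.78 in low animals. The groups overlapped, but 17 of 24 high animals lay above every low animal of their block. The OAS1 difference was 1.04 on the log2 scale (SE 0.17, adjusted p = 0.000377), a fold of 2.06. The middle animals lay between, at a mean level of 7.60 ± 0.61 (SD, n = 26) beside 8.18 ± 0.67 (SD, n = 24) in high and 7.14 ± 0.50 (SD, n = 24) in low animals.

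IFIT3, which binds IFIT1 and stabilises its grip on viral RNA in human cells, had levels of 7.87, 8.94 and 10.19 in high and 7.05, 7.68 and 8.21 in low animals of the lower block. The upper block gave 6.04, 8.09 and 11.15 against 5.71, 7.15 and 7.92. Again 17 of 24 high animals lay above all low animals of their block, while 1 high animal of the upper block was among the lowest. The IFIT3 difference was 1.11 (SE 0.21, adjusted p = 0.00598). IFIT3 is a paralog of the score gene IFIT1, and whether its probes also catch IFIT1 was not tested. With IFIT1 taken out of the score the IFIT3 difference was 1.03 (adjusted p = 0.0119).

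ISG12(A), a porcine gene of the IFI27 family of small interferon-induced mitochondrial proteins, had levels of 9.66, 10.37 and 11.20 in high and 8.66, 9.10 and 9.84 in low animals of the lower block. Those of the upper block were 8.86, 9.96 and 11.86 against 8.68, 9.13 and 9.66. The high levels were spread widely and the low ones tightly, with an SD of 0.68 in high and 0.32 in low animals. The ISG12(A) difference was 0.93 (SE 0.15, adjusted p = 0.000377), and 23 of 24 high animals lay above the median of the low animals of their block.

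RSF1 is annotated as a subunit of a chromatin remodelling complex and is not a textbook interferon-stimulated gene. Its levels were 10.14, 11.05 and 12.07 in high and 9.57, 10.14 and 10.65 in low animals of the lower block, and 9.81, 10.58 and 12.13 against 9.31, 9.77 and 10.54 in the upper block. All 24 high animals lay above the low median of their block, and the RSF1 difference was 0.77 (SE 0.14, adjusted p = 0.00471). The probe set with the smallest p has no symbol in the annotation used, Ssc.20101.1.S1_at. Its levels were 9.50, 10.06 and 11.02 against 8.55, 9.18 and 9.92 in the lower block and 9.17, 9.82 and 11.81 against 7.89, 8.92 and 9.46 in the upper block. It was higher by 1.08 (SE 0.16, adjusted p = 0.000154), with 19 of 24 high animals above every low animal of their block. The calls depended on which genes made the score. With MX1 left out of it, 20 high and 17 low animals were the same, and only ISG12(A) and Ssc.20101.1.S1_at stayed called. The differences of the others were 0.85 for OAS1 (adjusted p = 0.162), 0.64 for RSF1 (adjusted p = 0.236) and 0.86 for IFIT3 (adjusted p = 0.982). With ISG15 left out only Ssc.20101.1.S1_at stayed, and with IFIT1 left out all 5 did. Without ISG15 the differences were 0.99 for IFIT3 and 0.88 for OAS1 (adjusted p = 0.103 each), 0.68 for ISG12(A) (adjusted p = 0.207) and 0.62 for RSF1 (adjusted p = 0.288).

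**Figure D2:**
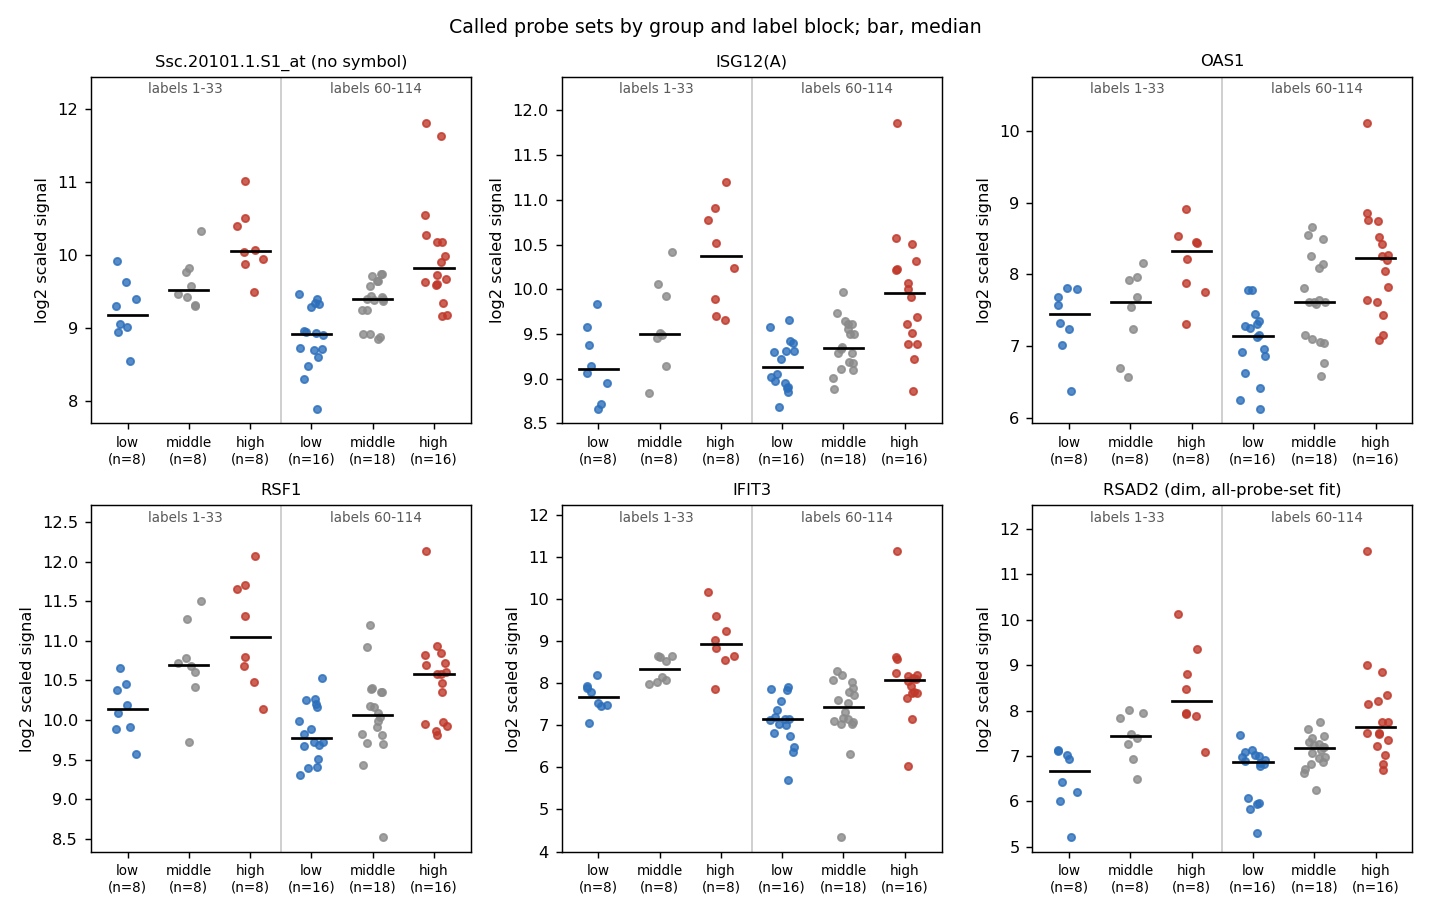
Log2 scaled signal of the 5 called probe sets and of RSAD2, a dim gene called only when all probe sets are tested, in 74 animals (points) by group and label block, with the group median as a bar. In each panel the median rises from low over middle to high animals in both blocks, and the points of high and low animals overlap in the upper block.

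RSAD2, or viperin, which makes a chain-ending nucleotide against viral polymerases, lay below the kept probe sets with a median signal of 141. When all probe sets were tested it was called as well, at a difference of 1.53 (SE 0.26, adjusted p = 0.00164). The RSAD2 levels were 7.08, 8.21 and 10.12 in high and 5.21, 6.67 and 7.13 in low animals of the lower block. Those in the upper block were 6.70, 7.63 and 11.51 against 5.29, 6.86 and 7.47. Counted over both blocks, 18 of 24 high animals lay above all low animals of their block, and no other tested gene of the interferon lists, kept or dim, had a difference as large.

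The wider antiviral set leaned the same way without passing the test gene by gene. Of 59 listed antiviral effectors, 26 are annotated on the array and 12 were kept, and of these 2 (OAS1 and IFIT3) were called. All 12 had a positive difference, with a median of 0.45, and 7 had an unadjusted p under 0.05, whereas over all tested probe sets 47.4% were positive with a median of -0.0079. PARP12, an ADP-ribosyltransferase that restrains viral translation, had levels of 7.33, 7.83 and 9.01 in high and 6.77, 7.27 and 7.55 in low animals of the lower block. In the upper block its levels were 7.42, 7.97 and 9.70 against 6.27, 7.44 and 8.39, with a wider overlap. Its difference over both blocks was 0.66 (SE 0.15, adjusted p = 0.117). GBP1, a GTPase that coats the vacuoles of intracellular pathogens, differed by 0.65 (SE 0.19, adjusted p = 0.422), and EIF2AK2, the kinase PKR that halts translation on double-stranded RNA, by 0.53 (SE 0.15, adjusted p = 0.422). IFIT2, another IFIT paralog, differed by 0.53 (SE 0.16, adjusted p = 0.506) and IFI44L by 0.38 (SE 0.11, adjusted p = 0.457). None of these 5 passed. The other kept effectors were TRAFD1 at 0.21, IFI35 at 0.20, PML at 0.14, SHISA5 at 0.07 and SAMHD1 at 0.04, each with an unadjusted p above 0.05.

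USP18, the protease that removes ISG15 from its targets and damps the type I receptor, was the 1 kept gene of ISG15 conjugation. Its levels were 7.63, 8.01 and 8.99 in high and 6.77, 7.18 and 7.82 in low animals of the lower block. In the upper block they were 7.72, 8.50 and 10.45 against 7.29, 8.25 and 9.53, so that the groups overlapped slightly in the first and widely in the second. The USP18 difference was 0.55 (SE 0.16, adjusted p = 0.422), 0.91 in the lower and 0.37 in the upper block. Among the 14 dim effectors 11 had a positive difference. Beside RSAD2, XAF1 differed by 1.09 (SE 0.30, adjusted p = 0.548 among all probe sets). The dim sensor ZBP1, which detects left-handed double-stranded nucleic acid, differed by 1.12 (SE 0.33, adjusted p = 0.625).

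**Figure D3:**
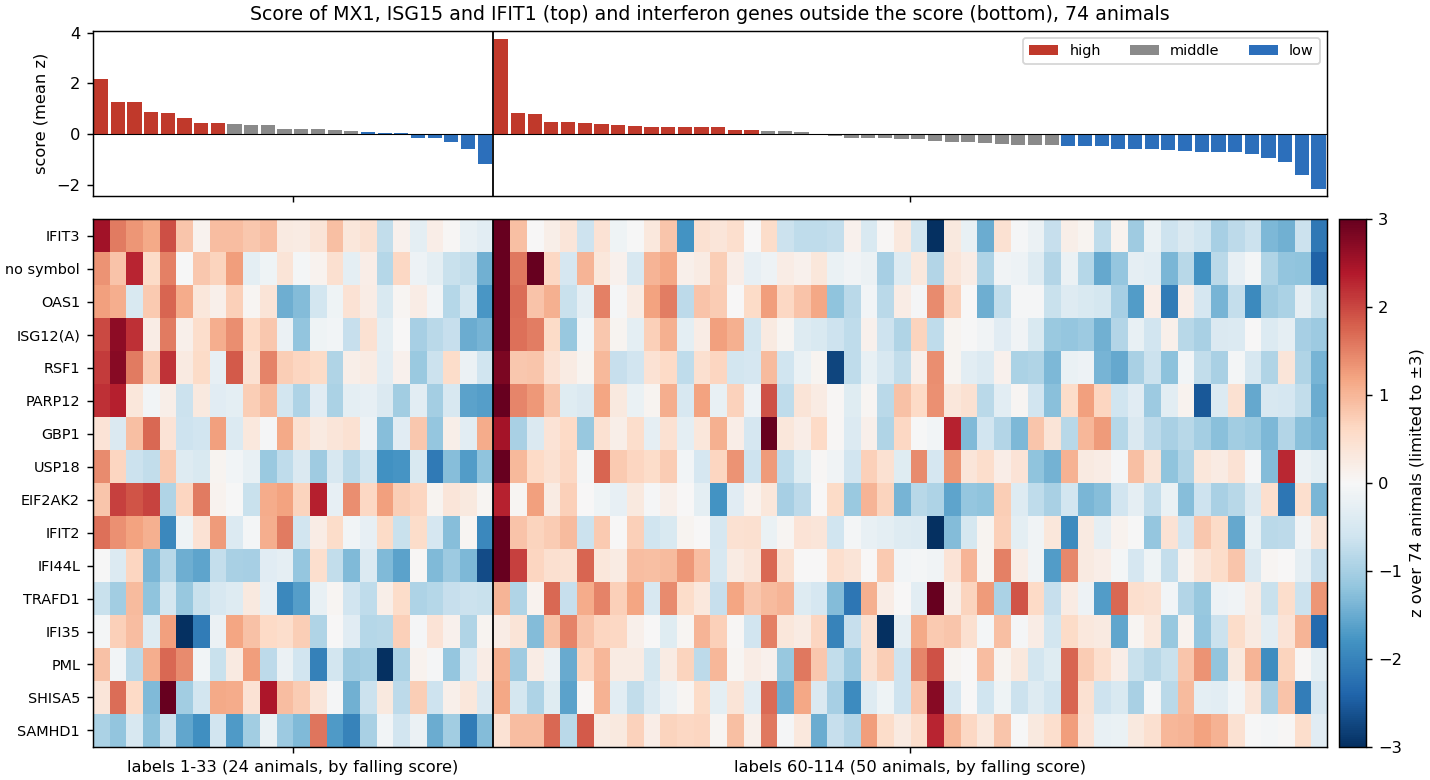
Score of each animal (top, mean z, coloured by group) and z scores over 74 animals of the 13 kept antiviral and ISG15-system genes with ISG12(A), RSF1 and the probe set with no symbol (bottom), animals in order of falling score within each label block. The first column of labels 60-114 is animal 63, which was the highest of all animals in 6 of the 13 genes. The rows are in order of falling difference between high and low animals, so the shading thins out downwards through that order.

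Animal by animal, the 13 kept antiviral and ISG15-system genes outside the score were summed as a mean z score, given as a description. In the lower block it ran from -0.489 over 0.317 to 0.757 in high animals and from -0.805 over -0.597 to 0.0710 in low animals. In the upper block it ran from -0.0362 over 0.330 to 2.32 in high and from -0.758 over -0.269 to 0.392 in low animals. In each block 6 high animals exceeded every low animal, and the middle animals had medians of -0.0262 and 0.0216. The orders matched in part. Animal 63 was first in its block on both measures, animals 15, 11 and 13 were the first to the third of the lower block on both, and animals 91 and 21 were last of their blocks on both. Others moved far. In the upper block animals 67 and 114, in places 3 and 5 by score, stood in places 14 and 28 by the other genes, animals 64 and 68 in places 48 and 49 stood in places 32 and 41, and the middle animal 102 stood in place 2.

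Upstream of these genes the picture was mixed. The ligands could hardly be read. IFNA1, IFNB1 and IFNG all lay below the kept probe sets, with mean levels in high and low animals of 6.87 and 6.51 for IFNA1, 3.72 and 2.99 for IFNB1 and 4.69 and 4.27 for IFNG, and unadjusted p-values of 0.228, 0.0781 and 0.292. Of the 16 kept receptors and JAK-STAT genes 14 had a positive difference with a median of 0.07, and 0 were called, with 5 at an unadjusted p under 0.05. The receptor chains and kinases lay near 0, with IFNAR1 at -0.0035, IFNAR2 at 0.13, IFNGR1 at 0.02, JAK1 at -0.08 and TYK2 at 0.06. The 5 were transcription factors and a phosphatase. IRF9, the DNA-binding part of the type I complex, differed by 0.43 (SE 0.12, adjusted p = 0.422), STAT2 by 0.32 (SE 0.11), IRF1 by 0.35 (SE 0.12), IRF8 by 0.37 (SE 0.17) and PTPN2, which dephosphorylates JAK1, by 0.23 (SE 0.08), the last 4 at adjusted p-values of 0.545 to 0.688. STAT2 levels in the lower block were 7.75, 8.12 and 8.51 in high and 6.92, 7.61 and 7.87 in low animals, with only a small overlap. Those of the upper block, 7.25, 7.98 and 8.79 against 7.14, 7.82 and 8.24, overlapped through most of their range.

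Among sensors 3 were kept, and MAVS, the mitochondrial adaptor of the RNA helicases, was the 1 kept interferon list gene with a negative difference at an unadjusted p under 0.05, at -0.33 (SE 0.14, adjusted p = 0.678). The other 2, MYD88 and TBK1, differed by 0.21 and 0.16.

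Antigen presentation leaned towards the high animals in both classes, and 0 genes were called. Of 14 kept MHC class I genes all had a positive difference, with a median of 0.17, and 7 had an unadjusted p under 0.05. PSMB8, the immunoproteasome subunit that interferon puts in place of a standard one, differed by 0.43 (SE 0.12, adjusted p = 0.412). PSMB8 levels of the upper block were 8.43, 8.78 and 9.73 in high and 7.76, 8.33 and 9.06 in low animals, so that the groups overlapped. Those of the lower block, 7.93, 9.06 and 9.34 against 8.06, 8.65 and 9.10, overlapped through most of their range. TAP1, the peptide transporter, differed by 0.39 (SE 0.13), PSMB10 by 0.30 (SE 0.12), the class I heavy chain SLA-2 by 0.27 (SE 0.12) and TAPBP, which loads peptides, by 0.20 (SE 0.08). B2M, the light chain, differed by 0.05 (SE 0.07) on its brightest probe set and from -0.19 to 0.40 over its 9 kept probe sets. The 14 genes of the standard proteasome core, which are not interferon-induced, had a median of -0.0098 with 4 positive and 0 at an unadjusted p under 0.05.

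Of 9 kept MHC class II genes 8 were positive with a median of 0.30, and 7 had an unadjusted p under 0.05. SLA-DRA, the class II alpha chain, had levels of 10.36, 11.23 and 11.58 in high and 10.26, 10.95 and 11.50 in low animals of the lower block, which is nearly the same range. Those of the upper block were 10.48, 11.21 and 11.82 against 9.84, 10.68 and 11.27, with the low animals further down. Its difference was 0.35 (SE 0.11, adjusted p = 0.545), with SLA-DQA1 at 0.31, SLA-DQB1 at 0.30 and SLA-DRB1 at 0.27. IFI30, a thiol reductase of the class II pathway, differed by 0.40 (SE 0.13) and CTSS, which trims the invariant chain, by 0.44 (SE 0.19).

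All 10 kept chemokine and adhesion genes had a positive difference, with a median of 0.28, and 3 had an unadjusted p under 0.05, namely CXCL14 at 0.37 (SE 0.13), CCL4 at 0.34 (SE 0.13) and VCAM1 at 0.34 (SE 0.13). Complement and acute phase genes were mixed, with 10 of 13 positive and a median of 0.10. C1QC, a chain of the complement protein C1q made by macrophages, stood at 0.42 (SE 0.19), and C3 at -0.28 (SE 0.35). Genes of interferon-induced metabolism were mixed too, with 4 of 6 positive and a median of 0.08. Over the 10 interferon lists together 78 of the 87 kept genes (89.7%) had a positive difference with a median of 0.19, beside 47.4% of all probe sets, and 35 (40.2%) had an unadjusted p under 0.05 in that direction, beside 3.62%. Only 2 of the 87 were called. One-sided lists were not particular to interferon genes. Cytosolic ribosome genes were positive for 38 of 39 and heat shock genes for 16 of 18, each with a median of 0.07 and 0 called. Oxidative phosphorylation genes leaned the other way, with 6 of 26 positive.

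**Figure D4:**
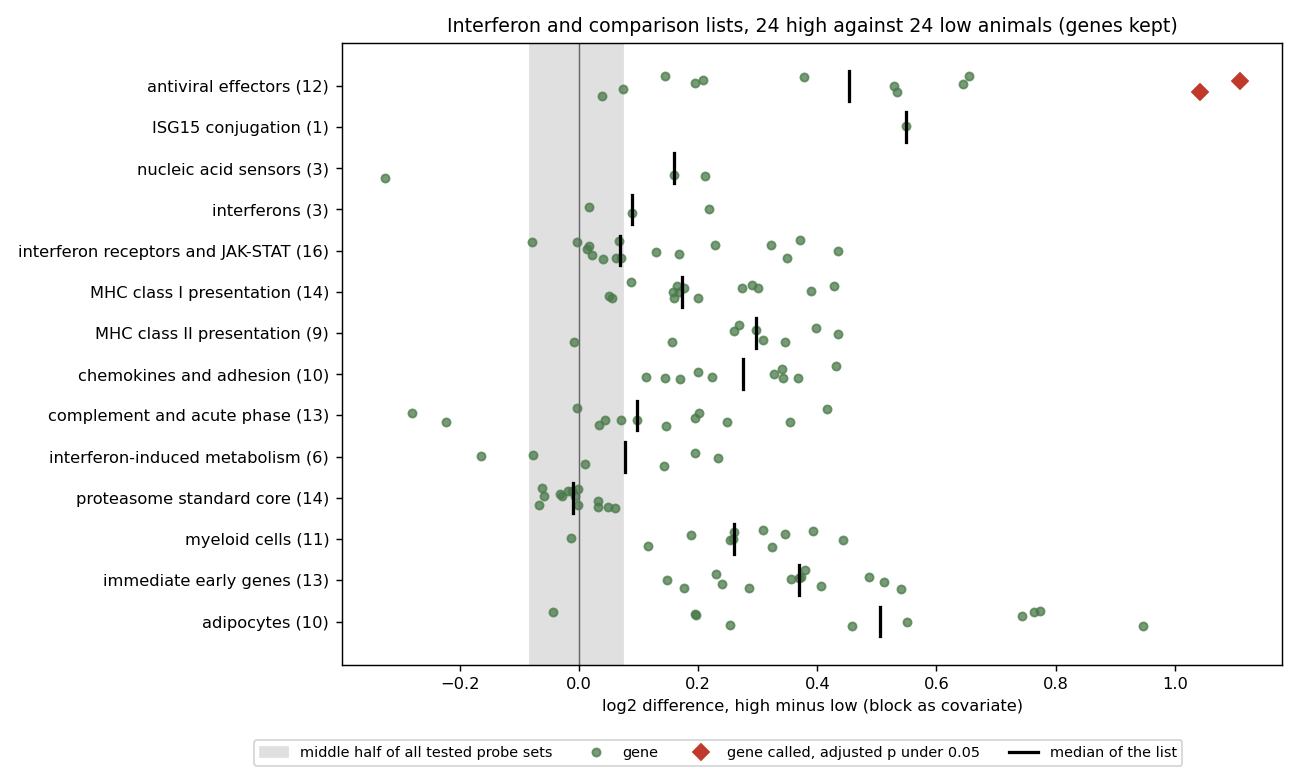
Log2 difference between 24 high and 24 low animals for each kept gene (points) of the 10 interferon lists and 4 lists set beside them, with list medians as bars and the range between the quartiles of all tested probe sets in grey. OAS1 and IFIT3 (diamonds) are the 2 called genes, and the median of the antiviral effectors is 0.45. The lists set beside them have medians of -0.0098 (standard proteasome core), 0.26 (myeloid cells), 0.37 (immediate early genes) and 0.50 (adipocytes).

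Markers of other cells were set beside these lists, and 0 of them were called. Of the 11 kept myeloid markers 10 had a positive difference, with a median of 0.26, and 0 were called. AIF1, a macrophage marker, differed by 0.44 (SE 0.15) and FCGR3A by 0.39 (SE 0.15). Summed with the B cell gene JCHAIN, the leukocyte score ran from -0.813 to 2.46 in high and from -1.40 to 1.08 in low animals, 0.419 higher on average (permutation p = 0.0445, two-sided, adjusted p = 0.192 over 14 measures). The whole of this lay in the upper block, where the difference was 0.639, against -0.0206 in the lower block. With the leukocyte score as a covariate the MHC class II median went from 0.30 to 0.12 and its genes at an unadjusted p under 0.05 from 7 to 1, and those of MHC class I went from 7 to 3 and of complement from 3 to 0. The antiviral median went from 0.45 to 0.40, with 11 of 12 positive and 7 at an unadjusted p under 0.05. All 5 called probe sets stayed called with this covariate. CTSS, IRF8 and C1QA followed the same division between blocks, with differences of -0.24, -0.42 and -0.08 in the lower and 0.77, 0.76 and 0.57 in the upper block. The MHC class II genes as a list did not, with 8 of 9 positive in each block and medians of 0.25 and 0.30. Receptor and JAK-STAT genes were positive for 8 of 16 in the lower and 12 of 16 in the upper block, complement genes for 8 of 13 and 10 of 13.

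Immediate early genes, which muscle switches on within minutes of stress, were positive for all 13 kept members with a median of 0.37, 8 at an unadjusted p under 0.05 and 0 called. DUSP1 differed by 0.41 (SE 0.12) and ZFP36 by 0.51 (SE 0.19). Their summed score was 0.469 higher in high animals (permutation p = 0.0038, adjusted p = 0.0532), and the 5 calls stayed with it as a covariate. Adipocyte markers were positive for 9 of 10 with a median of 0.50, led by PPARG at 0.95 (SE 0.37), and their summed score was 0.399 higher (permutation p = 0.0549, adjusted p = 0.192). The 5 calls stayed with that score as a covariate too. Endothelial markers had a median of -0.04, fibroblast and matrix genes of 0.09 with 10 of 15 positive, smooth muscle genes of 0.04 with 3 of 3 positive, 2 erythroid genes of 0.24 with 1 positive, and 20 skeletal muscle genes a median of 0.01. The skeletal muscle genes were positive for 20 of 20 in the lower block (median 0.17) and 3 of 20 in the upper block (median -0.06). Array level before scaling differed with the opposite signs, by -0.12 on the log2 scale in the lower and 0.08 in the upper block. Its part in the block differences of these genes was not tested. Array level, the 3' to 5' ratios of GAPDH, actin and EF1A, and 28S rRNA signal had permutation p-values of 0.236 or more, and the label number, on average 60.8 in high and 68.5 in low animals, one of 0.0811. The part of these measures in the lists was not tested beyond the covariate fits.

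The middle animals took no part in the high and low contrast and offer a separate look, over a narrow range of scores. Fitted on the score within those 26 animals, 0 probe sets were called, with a smallest adjusted p of 0.700, and 3.79% of all probe sets (434) rose at an unadjusted p under 0.05. Of the 87 interferon list genes 65 (74.7%) had a positive slope, beside 53.4% of all probe sets, and 12 rose at an unadjusted p under 0.05. OAS1 had a slope of 1.57 per score unit (unadjusted p = 0.0244), PARP12 of 1.07 (0.0380), IRF9 of 1.24 (0.0335) and PSMB8 of 1.38 (0.0142). Of the probe sets called between the groups, only OAS1 rose at an unadjusted p under 0.05. The slopes were 0.66 for Ssc.20101.1.S1_at (0.0929), 0.77 for ISG12(A) (0.0816), 0.74 for RSF1 (0.268) and 0.56 for IFIT3 (0.543).

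Used as a number over all 74 animals in place of the groups, the score took in more genes. In this fit 21 probe sets were called rising, a share of 0.183%, and 0 falling, and the 5 called between the groups were among them. The 14 with a symbol included PARP12 (slope 0.53 per score unit, adjusted p = 2.6e-09), IFI44L (0.35, 8.0e-07), USP18 (0.42, 7.4e-05), IFIT2 (0.43, 0.0007), EIF2AK2 (0.39, 0.00599), PSMB8 (0.29, 0.0152) and TAP1 (0.31, 0.0213). This fit leans on animal 63. Without it 13 were called, of which 12 were among the 21. PARP12 and IFI44L stayed (adjusted p = 4.8e-06 and 0.00527), whereas USP18, IFIT2, EIF2AK2, PSMB8 and TAP1 had adjusted p-values of 0.136, 0.302, 0.352, 0.168 and 0.225. The high against low calls did not lean on it in that way. Without animal 63, in otherwise unchanged groups, the same 5 were called, with OAS1 at 0.96, IFIT3 at 0.98, ISG12(A) at 0.85 and RSF1 at 0.70.

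The 2 blocks were also set beside each other. Of the 87 interferon list genes 62 (71.3%) were positive in the lower and 74 (85.1%) in the upper block, beside 48.6% and 50.4% of all probe sets. The OAS1 difference was 0.84 in the lower and 1.14 in the upper block, that of IFIT3 1.33 and 1.00, of ISG12(A) 1.20 and 0.80, and of RSF1 0.96 and 0.67. Each of the 4 was thus positive in both. Fitted alone, the lower block called 0 probe sets and the upper block 2, OAS1 and Ssc.20101.1.S1_at (adjusted p = 0.0361 each). The test of the difference between blocks called 0 of 11449, with a smallest adjusted p of 0.421. At an unadjusted p under 0.05 it had 1196 of 11449, more than the 414 higher and 372 lower between high and low animals. Probe sets that differ between blocks without passing the adjustment may thus be among them.

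**Figure D5:**
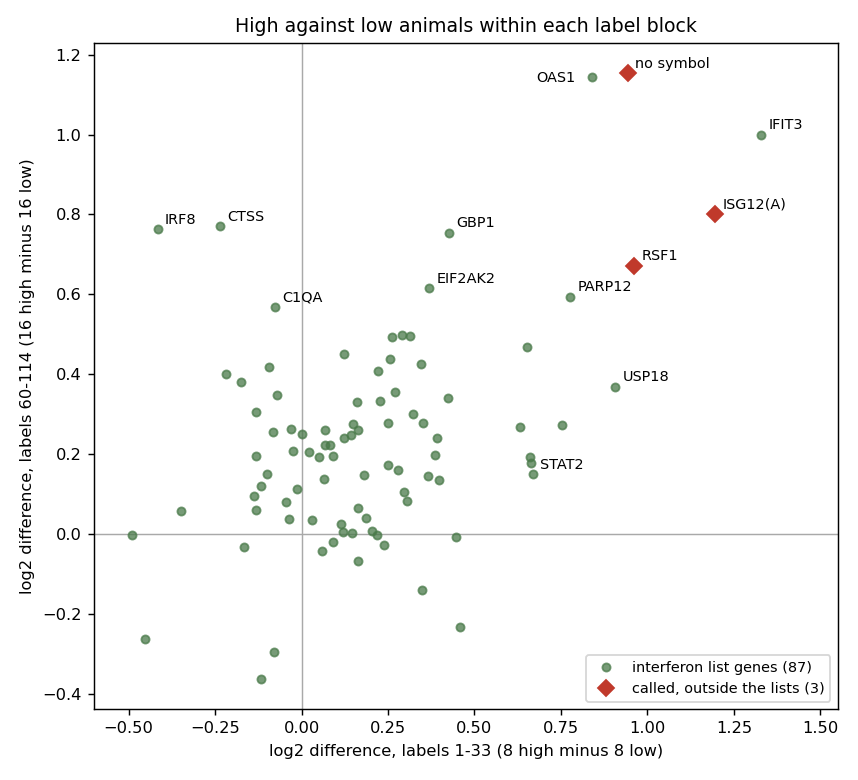
Log2 difference between high and low animals in labels 1-33 (x axis, 8 against 8) and labels 60-114 (y axis, 16 against 16) for the 87 kept interferon list genes (circles) and the 3 called probe sets outside the lists (diamonds). The called genes lie at the upper right, positive in both blocks, while IRF8 and CTSS are negative in labels 1-33 and positive in labels 60-114.

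No probe set was called lower. The probe set of smallest p among those with a symbol and a negative difference reads GYS1, the muscle glycogen synthase, at -0.41 (SE 0.12, adjusted p = 0.422). The brightest of the 3 kept GYS1 probe sets stood at -0.32 (SE 0.11, adjusted p = 0.545). The first had mean levels of 9.22 ± 0.48 (SD, n = 24) in high and 9.62 ± 0.34 (SD, n = 24) in low animals. ATP2A1, the calcium pump of fast fibres, stood at -0.39 (SE 0.13, adjusted p = 0.545) on 1 probe set and at -0.11 (SE 0.09, adjusted p = 0.844) on its brightest. Fast fibre genes had a median of 0.01, slow fibre genes of 0.05, glycolysis genes of -0.0014 and oxidative phosphorylation genes of -0.04, with 0 called in any of the 4 lists. These medians joined opposite signs in the 2 blocks. In the same order they were 0.18, 0.18, 0.16 and 0.02 in the lower and -0.07, -0.0005, -0.08 and -0.06 in the upper block. Fast fibre genes were positive for 8 of 8 in the lower and 0 of 8 in the upper block, glycolysis genes for 13 of 13 and 2 of 13. The log2 array level before scaling differed by -0.12 in the lower and 0.08 in the upper block, and its part here was not tested. Among the positive differences outside the lists, those of smallest p with a symbol that missed the threshold were GM2A, the lysosomal activator of ganglioside breakdown, at 0.60 (SE 0.15, adjusted p = 0.179), and LOC733579 at 0.57 (SE 0.13, adjusted p = 0.118).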

How the data were processed

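The authors deposited a table of array intensities, 1 column per animal, made from scans in GCOS 1.1.1 per the submitters' processing notes, and the study names scaling, present calls and PLIER. The algorithm behind the deposited intensities is not stated. Array trimmed means (2% off each end) ran from 50.3 to 183.2, so the arrays were brought to 500, values under 1 were set to 1, and log2 was taken. The score, the groups and the gene lists were chosen with earlier results of these data known. Each probe set was fitted with limma 3.58.1 (R 4.3.3) on group and block, adjusted over all tested, at 0.05. The fit was tested on simulated data. A gene took its kept probe set of highest median. Named genes were those of the 10 interferon lists, up to 10 called probe sets with a symbol on either side outside them, and the score genes, and others named here were chosen after their values were seen. ISG12(A) stands outside the lists because its symbol was not in them. Of the probe sets, 10069 have 1 symbol, 198 several and 13732 none. Technical and marker scores were permuted 100000 times within blocks. Alternatives changed scaling, probe set filter, score genes, group size, animals and covariates. Promoter motifs were not analysed here. The number of arrays limits the precision. Python 3.11.15 with numpy 2.4.6, pandas 2.3.3 and matplotlib 3.10.9 made the tables and plots.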

Additional observations from a re-analysis of the deposited data

Results flagged for a closer look

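In groups of 8 animals, the outermost value was compared with its neighbour by Dixon's ratio for the 37 genes and probe sets whose alternatives were followed, which gave 74 groups, of which 3 had a value far from the rest. Chance alone flags about 1 in 20 such groups. PSMB8 stood at a log2 level of 7.93 in animal 6 of the high animals of the lower block, whose median was 9.06. MAVS stood at 7.08 in animal 17 of the low animals of that block, whose median was 8.32. GM2A stood at 6.36 in animal 4 of the same low animals, whose median was 7.81. No difference between the blocks passed its test, though 1196 of 11449 probe sets had an unadjusted p under 0.05.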

How the results depend on the processing

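The same 5 probe sets were called higher, and 0 lower, under quantile normalization, the deposited values, a pseudocount of 16, the GAPDH ratio, leukocyte, immediate early or adipocyte scores as covariates, z scores within blocks, and without the extreme animals, animal 63, or animals 63 and 15. The settings without animal 63 or 15, by rank and with immediate early or adipocyte scores, and the leaving out of each animal, were chosen after seeing the data. Array level as a covariate and testing all probe sets gave 6 each. Leaving out each of 48 animals in turn gave 5 to 7 calls, and the 5 were called in all 48. The score and the groups of the other animals were not made anew for these fits. The choice of score genes moved the count. Without MX1, 2 were called higher, and without ISG15 only 1, with 0 interferon list genes each, and OAS1 had adjusted p-values of 0.162 and 0.103. ISG12(A), which stands outside the lists, was among the 2 called without MX1. Without IFIT1, 17 were called higher and 1 lower, with 7 list genes, and also without animal 63, 12 higher and 1 lower, with 4. Groups from a division of each block into 4 in place of 3 parts gave 8 higher and 1 lower, with 4 list genes. The lower block alone gave 0 (0 list genes) and the upper 2 (1 list gene). The score as a number gave 21 (9 list genes), 13 without animal 63 (4 list genes), and its rank 15 (6 list genes). In the lower block alone CTSS (-0.24), FCGR3A (-0.032) and the brightest GYS1 probe set (0.044) had the opposite sign. No paired analysis was possible because each animal gave 1 array. The blocks' meaning, family, sex and drip loss are not in the labels.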

Other observations

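The array carries 3 control probe sets for RSAD2, along its 3' end, middle and 5' end, which took no part in the tests. In animal 63 their log2 levels were 10.18, 8.87 and 8.39, and the highest levels among the other 73 animals were 7.97, 6.54 and 6.10. Their medians over all animals were 5.36, 5.02 and 4.03, far below the kept probe sets.

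With groups taken from MX1 and ISG15 alone, 17 probe sets were higher and 1 was lower. Beside OAS1, IFIT3, ISG12(A) and RSF1, the named ones were PARP12, PSMB8, IRF9, IRF1, SLA-2, WAS and MOV10. PARP12 differed by 0.84 (adjusted p = 0.000589) and SLA-2 by 0.47 (adjusted p = 0.0221) in that fit. Without animal 63 both stayed called (adjusted p = 0.000393 and 0.0365), while PSMB8, IRF9, IRF1, WAS and MOV10 had adjusted p-values of 0.0606 to 0.0689.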
